A study of Mus musculus with 9 samples.

Results

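Costimulatory and checkpoint ligands are surface or secreted proteins by which antigen-presenting cells and tissue cells raise or restrain the activity of T cells and phagocytes. The 8 genes described here were chosen by name: Cd274, Pdcd1lg2, Cd80, Cd86, Cd40, Lgals9, Cd47 and Cd200. All 18 probe sets that carried 1 of these symbols alone in the platform annotation were taken, of 45101 on the array. Expression was measured in brain tissue of adult male BALB/c mice 2 days after injection into the striatum, with 1 array per mouse and 3 mice in each of 3 groups (n = 3 per group throughout). Mice of the HS group received BV-HSVtk, a baculovirus vector grown in insect cells, that had been purified by high-speed centrifugation. Mice of the MC+HS group received the same vector purified by membrane chromatography followed by high-speed centrifugation, and both groups were given 100000000 particles in 10 µL on each side. The mock group received Sf9 insect cell medium that held no baculovirus and had been through the MC+HS purification, so that vector and purification differ together between HS and mock and cannot be told apart. The tissue was taken around the injection sites, and the mice had an intact immune system.

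A T cell that recognises antigen needs a second signal, which CD80 and CD86 give through CD28, and the same ligands inhibit through CTLA-4. PD-L1, encoded by Cd274, and PD-L2, encoded by Pdcd1lg2, restrain T cells through PD-1, and galectin-9, encoded by Lgals9, binds TIM-3 among other glycoproteins. CD40 works the other way, as the receptor by which an antigen-presenting cell is licensed by CD40L on T cells. CD47 and CD200 are held at high levels by neurons and other brain cells and restrain phagocytes through SIRPα and the CD200 receptor on microglia and macrophages. In many tissues the PD-L1 gene is induced by interferons.

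Values are log2(signal + 16) after each array's median was set to a common level, and a difference of 1 on this scale is a 2-fold change, understated for dim genes. Differences were tested with limma over 28257 probe sets, and a probe set was called at a Benjamini-Hochberg adjusted p under 0.05. Array medians lay between 147 and 263 intensity units. HS replicate 1 stood apart, with a median correlation to the other arrays of 0.805, against 0.972 to 0.982, and a narrower range of log2 signals (SD 1.54, against 2.17 to 2.39). Results are therefore given with all 9 arrays and without that array. With all 9 arrays the median gene differed by -0.23 between HS and mock and by 0.01 between MC+HS and mock. These medians were 0.05 and 0.01 when that array was left out. All 8 neuronal, 8 astrocyte, 7 oligodendrocyte and 7 striatal medium spiny neuron genes named on the array passed the filter on dim probe sets. Of all 18193 genes 13331 passed it, so this is a weak check of the brain label. Of T cell markers 3 of 7 passed it, of dendritic cell markers 4 of 7 and of B cell markers 2 of 5. In bulk tissue, fewer cells of a type and less RNA per cell cannot be told apart.

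Of the 18 probe sets, 10 passed the filter, and they represented 6 of the 8 genes. Pdcd1lg2, with 1 probe set, and Cd80, with 4, were dim on nearly all arrays. The probe set with the highest mean led a gene that had several. With all 9 arrays Cd274 and Lgals9 rose in both vector groups, and none of the genes that passed the filter fell. Of the 6 that passed the filter, 2 were called higher in HS against mock, where 0.893% of the 13331 genes that passed it were called higher and 0.0375% lower. In MC+HS against mock 2 of the 6 were called higher, where 0.69% of these genes were called higher and 0.0225% lower. Over the 6 genes that passed the filter the median difference was 0.58 in HS and 0.65 in MC+HS. Over all genes that passed it, the medians were -0.23 and 0.01. Cd40, among the 6, passed the filter through vector arrays alone, which can raise their medians, so these are given as a description only.

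**Figure D1:**
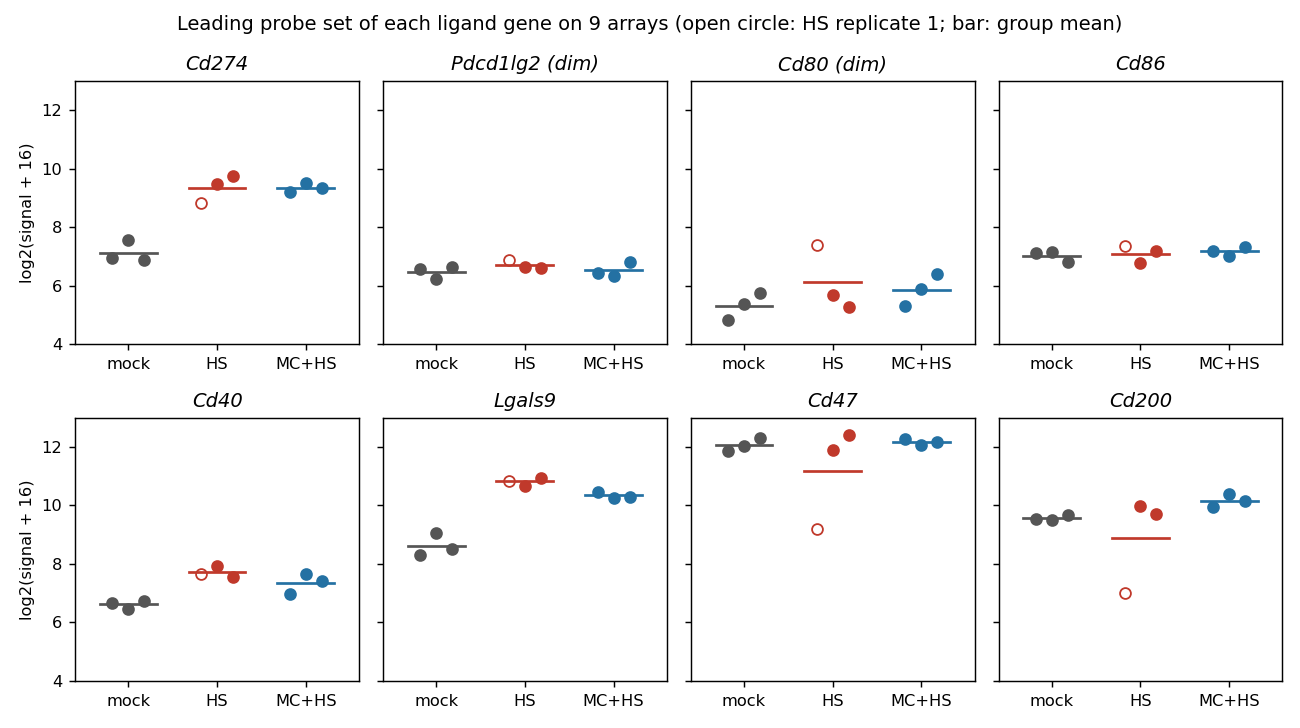
Log2(signal + 16) of the leading probe set of each gene (vertical axis) on the 9 arrays by group, with a bar at each group mean and HS replicate 1 as an open circle; genes marked dim did not pass the filter. Cd274 and Lgals9 lie above every mock array on all 6 vector arrays, and HS replicate 1 lies far below the other arrays for Cd47 and Cd200.

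The sequences just upstream of Cd274 and Lgals9 are shown because these are the 2 genes that rose in both groups. They run from 250 bases before to 50 after the annotated start, 5′ to 3′ on the gene's strand, and come from RefSeq for build GRCm38.p6, in which 6 of the 8 genes were matched. The Cd274 window lies at chr19:29367188-29367487 on the plus strand, and the Lgals9 window at chr11:78984875-78985174 on the minus strand. Capitals, present in the Lgals9 window alone, mark matches on either strand to the core of the interferon-stimulated response element, searched as GAAA, any 2 bases and GAAA.
Cd274: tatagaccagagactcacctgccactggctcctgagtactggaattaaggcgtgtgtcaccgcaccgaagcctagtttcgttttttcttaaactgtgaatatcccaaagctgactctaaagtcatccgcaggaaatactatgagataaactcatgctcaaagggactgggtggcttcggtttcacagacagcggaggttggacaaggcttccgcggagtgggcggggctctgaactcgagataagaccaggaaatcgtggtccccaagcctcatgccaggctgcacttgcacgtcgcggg
Lgals9: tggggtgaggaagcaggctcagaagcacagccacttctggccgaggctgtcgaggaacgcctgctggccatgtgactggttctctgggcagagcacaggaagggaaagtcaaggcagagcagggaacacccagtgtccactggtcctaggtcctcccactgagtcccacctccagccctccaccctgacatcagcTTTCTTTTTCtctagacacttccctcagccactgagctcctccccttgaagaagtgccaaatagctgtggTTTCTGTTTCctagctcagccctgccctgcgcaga
The Lgals9 window held 2 matches, and 3.44% of 32851 promoter windows of the same length held at least 1. No match to that core was found in the windows of Cd274, Pdcd1lg2, Cd80, Cd47 or Cd200. The gamma-activated site (TTC, any 3 bases and GAA), present in 8.3% of windows, and the NF-kB core (GGG, any 2 bases and TTTCC), present in 1.63%, matched none of the 6 genes' windows. The motifs were searched on both strands, and a match is a description of the letters alone.

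Cd274, the PD-L1 gene, was measured by probe set 1419714_at. Its log2 signals were 6.94, 7.55 and 6.88 on mock replicates 1 to 3, 8.81, 9.47 and 9.76 on the HS arrays, and 9.21, 9.51 and 9.35 on the MC+HS arrays. All 6 vector arrays lay above all 3 mock arrays, with the lowest of the HS values on replicate 1, and the highest mock value on replicate 2. By rank within its own array, HS replicate 1 was instead the highest of the HS arrays, at the 80.6th percentile, against 76.0 and 78.7 on HS replicates 2 and 3. Groups that did not overlap, with the vector higher, were found for 4.65% of probe sets in HS against mock and 8.79% in MC+HS against mock. Against mock, Cd274 was 4.66-fold higher in HS (log2 difference 2.22 ± 0.27, SE, limma adjusted p = 0.00811) and 4.69-fold higher in MC+HS (2.23 ± 0.27, adjusted p = 0.0113). Over the 8 arrays without HS replicate 1 the differences were 2.49 ± 0.20 (limma adjusted p = 5.56e-05) and 2.23 ± 0.18 (adjusted p = 6.59e-05). The HS call was lost when mock replicate 1 or 3 was left out, at differences of 2.13 and 2.10 (limma adjusted p = 0.0558 and 0.0540), and in a fit of only the HS and mock arrays (adjusted p = 0.0947). In MC+HS it was lost when mock replicate 1 or 3, or any MC+HS array, was left out, with differences from 2.11 to 2.30 and limma adjusted p from 0.0628 to 0.0912.

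Lgals9, the galectin-9 gene, was measured by probe set 1421217_a_at. The mock arrays gave log2 signals of 8.29, 9.06 and 8.52, the HS arrays 10.85, 10.67 and 10.95, and the MC+HS arrays 10.47, 10.26 and 10.29. The groups did not overlap in any pair: HS was highest on all 3 arrays, MC+HS lay between, and mock replicate 2 was again the highest of the mock arrays. Here the log2 signal of HS replicate 1 lay among those of the other HS arrays. Within its own narrower range it stood higher, at the 97.3rd percentile, against 88.2 and 89.9 on HS replicates 2 and 3. Lgals9 was 4.58-fold higher in HS than in mock (log2 difference 2.20 ± 0.24, limma adjusted p = 0.00520) and 3.29-fold higher in MC+HS (1.72 ± 0.24, adjusted p = 0.0203). On the 8 other arrays the differences were 2.18 ± 0.19 (limma adjusted p = 0.000108) and 1.72 ± 0.17 (adjusted p = 0.000292). The HS call held with each array left out in turn and was lost in a fit of only the HS and mock arrays (limma adjusted p = 0.0805). The MC+HS call was lost when mock replicate 1 or 3, or any MC+HS array, was left out, with differences from 1.55 to 1.76 and limma adjusted p from 0.112 to 0.136. It was also lost with quantile normalization (1.63, limma adjusted p = 0.187) and with no median centring (1.74, adjusted p = 0.173).

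**Figure D2:**
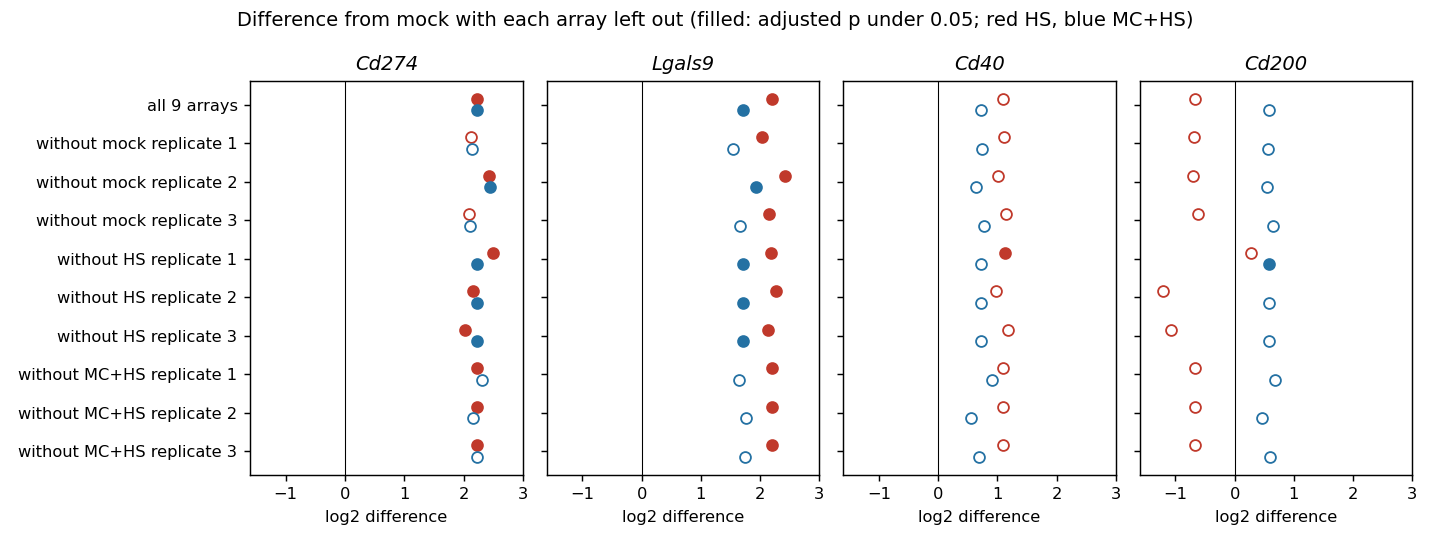
Log2 difference from mock (horizontal axis) of the leading probe sets of Cd274, Lgals9, Cd40 and Cd200 with all 9 arrays and with each array left out in turn (rows); red is HS, blue is MC+HS, and filled points had a limma adjusted p under 0.05. Cd274 and Lgals9 keep differences between 1.55 and 2.49, while Cd200 in HS lies below 0 in all fits that hold HS replicate 1 and at 0.27 without it.

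Pdcd1lg2, the gene of the other PD-1 ligand, lies next to Cd274 in the promoter table's build, with 43481 bases between the starts of their windows. Its log2 signals, from the single dim probe set 1450290_at, were 6.56, 6.23 and 6.64 in mock, 6.88, 6.65 and 6.62 in HS, and 6.45, 6.32 and 6.83 in MC+HS. The groups overlapped. In a fit with no filter it differed from mock by 0.24 ± 0.21 in HS (95% interval -0.24 to 0.72, limma adjusted p = 0.750) and by 0.06 ± 0.21 in MC+HS (95% interval -0.42 to 0.54, adjusted p = 1). These intervals lie below the Cd274 differences of 2.22 and 2.23, but the signal of so dim a probe set may not follow its transcript.

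The CD28 ligand genes showed no call. For Cd86 the leading probe set 1420404_at gave 7.13, 7.16 and 6.81 in mock, 7.35, 6.77 and 7.18 in HS, and 7.18, 7.01 and 7.33 in MC+HS. The 3 groups overlapped fully. The difference from mock was 0.07 ± 0.20 in HS (95% interval -0.39 to 0.52, limma adjusted p = 0.874) and 0.14 ± 0.20 in MC+HS (95% interval -0.31 to 0.60, adjusted p = 1). The other Cd86 probe set, 1449858_at, differed by 0.80 ± 0.38 in HS (limma adjusted p = 0.635), and by 0.40 ± 0.30 without HS replicate 1, where its signal was highest of the 9 arrays. For Cd80 the 4 probe sets were all dim, with group means between 4.50 and 6.12, and in HS they did not move together. In HS against mock 1432826_a_at differed by 0.99 ± 0.30 and 1451950_a_at by -0.93 ± 0.37 (limma adjusted p = 0.514 and 0.749, no filter). In MC+HS against mock all 4 differences were above 0, from 0.09 ± 0.37 for 1451950_a_at to 0.60 ± 0.29 for 1427717_at. Dim probe sets were not open to a call. The leading one, 1454372_at, had its highest signal on HS replicate 1, at 7.40, against 4.82 to 6.40 on the other arrays.

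Cd40, whose product receives the T cell signal CD40L on antigen-presenting cells and is also found on activated microglia and endothelium, was measured by 3 probe sets. The leading one, 1439221_s_at, gave log2 signals of 6.67, 6.47 and 6.74 in mock, 7.67, 7.94 and 7.56 in HS, and 6.97, 7.67 and 7.41 in MC+HS. Its mock signals lay at the 34.7th to 37.7th percentile of their arrays, below the filter's 40th. It thus passed the filter through vector arrays alone. All vector arrays lay above all mock arrays, also for the other probe sets 1449473_s_at and 1460415_a_at. Among probe sets that passed the filter, which 1460415_a_at did not, 4.65% lay so in HS against mock and 8.79% in MC+HS against mock. With all 9 arrays none of the 3 was called: the leading one differed by 1.09 ± 0.21 in HS (limma adjusted p = 0.0603) and by 0.72 ± 0.21 in MC+HS (adjusted p = 0.385). When HS replicate 1 was left out it rose in HS, by 1.12 ± 0.23 (limma adjusted p = 0.0204), and in MC+HS it differed by 0.72 ± 0.20 (adjusted p = 0.0952). Probe set 1449473_s_at differed by 0.53 ± 0.24 in HS and 0.72 ± 0.24 in MC+HS (limma adjusted p = 0.635 and 0.577). The dim 1460415_a_at differed by 2.14 ± 0.43 and 1.36 ± 0.43 in the fit with no filter (limma adjusted p = 0.118 and 0.744), and by 1.67 ± 0.33 and 1.36 ± 0.29 without HS replicate 1 (adjusted p = 0.0286 and 0.0490). The size of the Cd40 difference thus ranged between 0.53 and 2.14 across probe sets of the same gene.

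**Figure D3:**
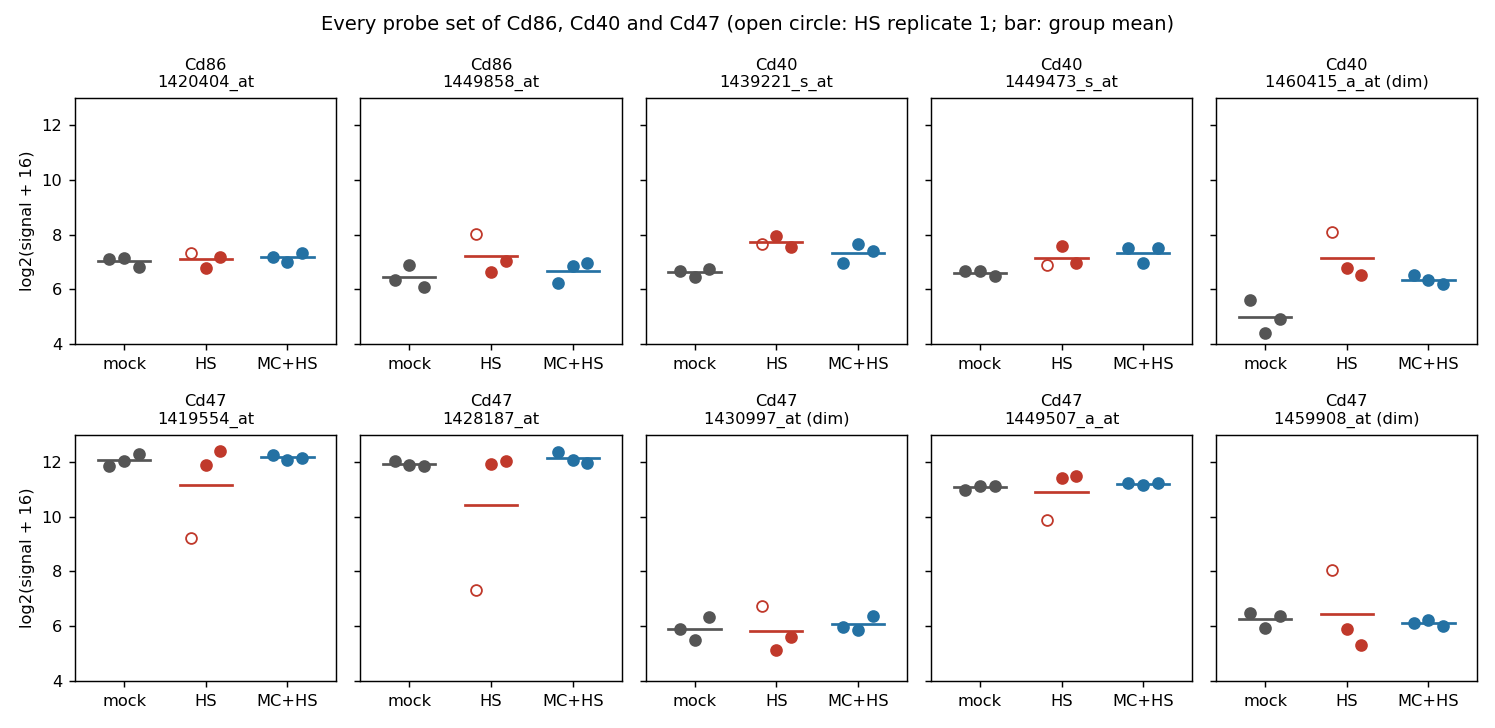
Log2(signal + 16) (vertical axis) of every probe set of Cd86, Cd40 and Cd47 on the 9 arrays by group, with group means as bars and HS replicate 1 as an open circle; dim probe sets are marked. All 3 Cd40 probe sets lie higher on the 6 vector arrays than on the mock arrays, and HS replicate 1 is low for the 3 bright Cd47 probe sets and high for the 2 dim ones.

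Cd47 and Cd200, the ligands that restrain phagocytes, had no call with all 9 arrays. For Cd47 the leading probe set 1419554_at gave 11.87, 12.02 and 12.29 in mock, 9.20, 11.90 and 12.40 in HS, and 12.26, 12.08 and 12.16 in MC+HS. Apart from HS replicate 1 all arrays lay between 11.87 and 12.40, and the groups overlapped. The difference from mock was -0.89 ± 0.70 in HS and 0.10 ± 0.70 in MC+HS (limma adjusted p = 0.635 and 1). With that array left out it was 0.09 ± 0.15 (95% interval -0.25 to 0.43) and 0.10 ± 0.14 (95% interval -0.20 to 0.41), with limma adjusted p of 0.847 and 0.811. Another bright probe set, 1449507_a_at, then differed by 0.36 ± 0.09 in HS and 0.12 ± 0.08 in MC+HS (limma adjusted p = 0.0629 and 0.586), while 1428187_at differed by 0.04 ± 0.12 and 0.21 ± 0.11 (adjusted p = 0.928 and 0.424). The bright Cd47 probe sets thus did not order the vector groups alike.

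For Cd200, a ligand made mainly by neurons in the brain, probe set 1448788_at gave 9.53, 9.50 and 9.69 in mock, 7.02, 9.97 and 9.72 in HS, and 9.95, 10.39 and 10.14 in MC+HS. Every MC+HS array lay above every mock array, a pattern shared by 8.79% of probe sets that passed the filter. HS replicates 2 and 3 lay just above mock, and HS replicate 1 lay far below. The difference from mock was -0.67 ± 0.65 in HS (limma adjusted p = 0.653) and 0.58 ± 0.65 in MC+HS (adjusted p = 1). When that array was left out the standard error was smaller, and Cd200 was called higher in MC+HS (0.58 ± 0.13, 95% interval 0.30 to 0.86, limma adjusted p = 0.0307), and differed by 0.27 ± 0.14 in HS (adjusted p = 0.433). That 1 array decided the call. Without it 3 of the 6 genes that passed the filter were called higher in each vector group. These were Cd274, Lgals9 and Cd40 in HS and Cd274, Lgals9 and Cd200 in MC+HS. Cd40 had passed the filter through vector arrays alone. Of the 13224 genes that then passed it, 3.83% in HS and 3.26% in MC+HS were called higher. None of the 6 was called lower, where 0.401% and 0.446% of these genes were. The HS and MC+HS comparisons share the mock arrays and are not independent.

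**Figure D4:**
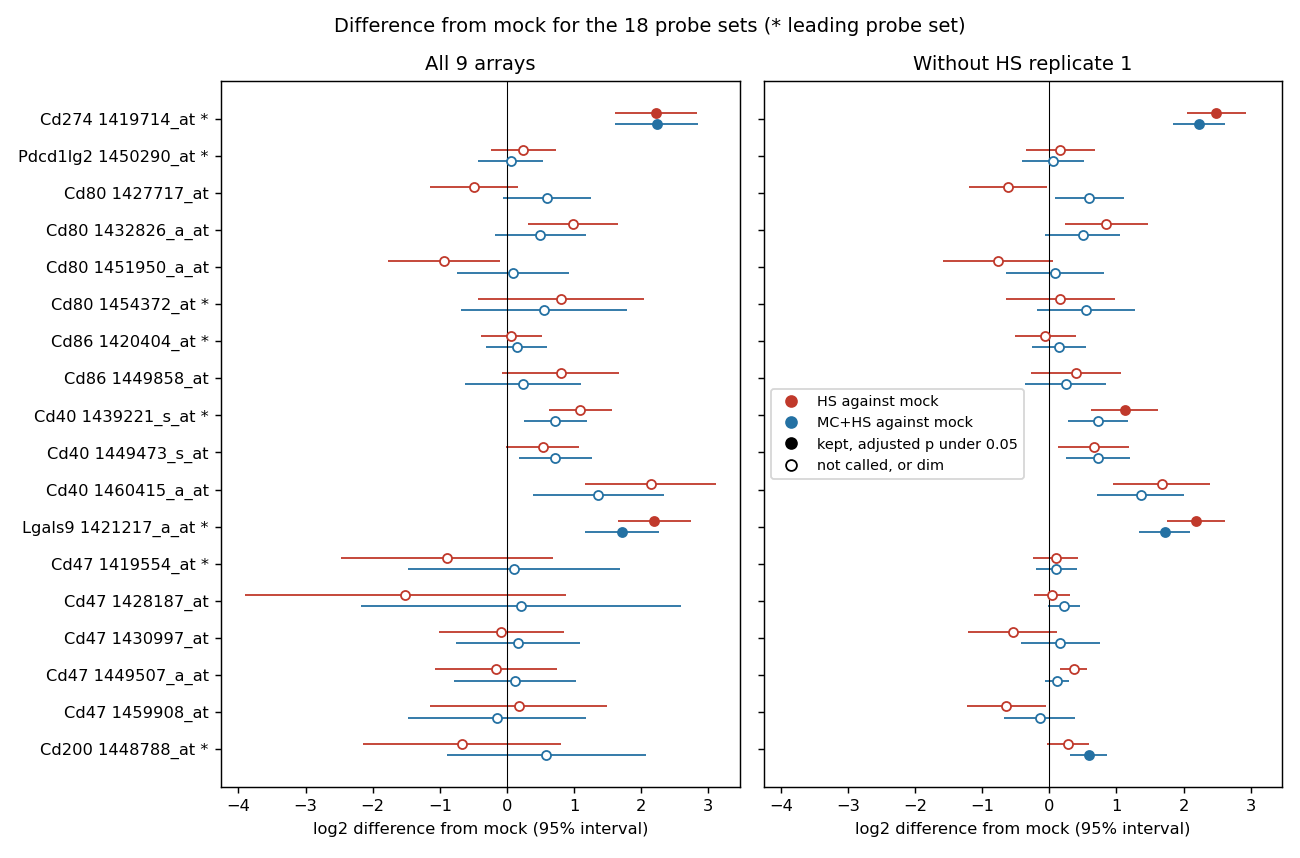
Log2 difference from mock with its 95% interval (horizontal axis) for the 18 probe sets (rows, an asterisk marks the leading one), with all 9 arrays on the left and without HS replicate 1 on the right; red is HS, blue is MC+HS, filled points passed the filter and had a limma adjusted p under 0.05, and dim probe sets come from a fit with no filter. The intervals of Cd47 and Cd200 narrow without HS replicate 1, and those of Cd274 and Lgals9 exclude 0 in both panels.

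The comparison of MC+HS with HS, the one the series was designed for, gave no call among the 8 genes or on the whole array with all 9 arrays, where 847 of 28257 probe sets had an unadjusted p under 0.05. For Cd274 the difference was 0.01 ± 0.27 (95% interval -0.60 to 0.62, limma adjusted p = 0.990), and without HS replicate 1 it was -0.26 ± 0.20 (95% interval -0.70 to 0.18, adjusted p = 0.795). Lgals9 was lower on all 3 MC+HS arrays than on all 3 HS arrays, a pattern shared by 2.88% of probe sets. Its difference was -0.48 ± 0.24 (95% interval -1.03 to 0.07, limma adjusted p = 0.728), and -0.46 ± 0.19 without HS replicate 1 (adjusted p = 0.621). Cd40 differed by -0.37 ± 0.21 by its leading probe set (95% interval -0.84 to 0.10, limma adjusted p = 0.728). Its other probe set that passed the filter, 1449473_s_at, differed in the other direction, by 0.19 ± 0.24 (limma adjusted p = 0.757). The dim 1460415_a_at differed by -0.78 ± 0.43 in the fit with no filter (limma adjusted p = 0.813). Cd86 differed by 0.08 ± 0.20 (95% interval -0.38 to 0.53, limma adjusted p = 0.877). In the fit with no filter Pdcd1lg2 differed by -0.19 ± 0.21 (limma adjusted p = 0.817). The dim Cd80 probe sets differed by -0.49 to 1.09, with the largest difference in 1427717_at (1.09 ± 0.29, 95% interval 0.43 to 1.74, limma adjusted p = 0.813). For Cd47 and Cd200 the intervals were wide with all arrays, -0.58 to 2.57 and -0.23 to 2.74. On the 8 other arrays Cd47 differed by 0.01 ± 0.15 (95% interval -0.33 to 0.35) and Cd200 by 0.31 ± 0.14 (adjusted p = 0.653).

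The receptors of these ligands, counted with Cd40lg, which encodes the ligand of the receptor CD40, gave no call in either vector group. Of 8, only Rgmb, which binds PD-L2, Havcr2, which encodes TIM-3, and Sirpa, which encodes the CD47 receptor SIRPα, passed the filter. Sirpa differed from mock by -0.65 ± 0.53 in HS and -0.08 ± 0.53 in MC+HS (limma adjusted p = 0.635 and 1), and by 0.09 ± 0.10 and -0.08 ± 0.09 without HS replicate 1. Havcr2 differed by 0.59 ± 0.30 and 0.08 ± 0.30 (limma adjusted p = 0.635 and 1), and Rgmb by -0.71 ± 0.40 and -0.19 ± 0.40 (adjusted p = 0.635 and 1). On the 8 arrays Havcr2 differed by 0.21 ± 0.17 and 0.08 ± 0.16, and Rgmb by -0.14 ± 0.13 and -0.19 ± 0.11, again with no call. Pdcd1, Cd28, Ctla4, Cd40lg and Cd200r1, which encode PD-1, CD28, CTLA-4, CD40L and the CD200 receptor, did not pass the filter. The deposited signals of Pdcd1 were 4.82 to 14.9 intensity units on 8 arrays and 53.4 on HS replicate 3. For Cd200r1 and Ctla4 the highest signal was on HS replicate 1, at 244 and 218, against at most 51.9 and 28 on the other arrays. Of 12 further costimulatory and checkpoint receptors of T and NK cells, 11 were named on the array, 5 passed the filter and none was called. Tnfrsf9, which encodes the costimulatory receptor 4-1BB, differed by 0.73 ± 0.38 in HS and 1.03 ± 0.38 in MC+HS (limma adjusted p = 0.635 and 0.754), and Lag3, an inhibitory receptor that binds MHC class II, by 0.72 ± 0.30 and 0.41 ± 0.30 (adjusted p = 0.635 and 1). On the 8 arrays Tnfrsf9 differed by 1.04 ± 0.34 and 1.03 ± 0.30 (limma adjusted p = 0.167 and 0.114), and Lag3 by 0.35 ± 0.20 and 0.41 ± 0.18 (adjusted p = 0.477 and 0.319). The summed signal of this receptor list was 1922 on HS replicate 1, against 878 on each other HS array, 830 to 961 in MC+HS and 741 to 959 in mock.

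Among 16 other ligands of the B7, TNF and nectin families, 14 were named and 10 passed the filter. In HS 1 was called, Nectin2, a ligand of the receptors DNAM-1 and TIGIT, at 0.91 ± 0.16 (limma adjusted p = 0.0459). In MC+HS Nectin2 differed by 0.91 ± 0.16 and was not called (limma adjusted p = 0.0535), and without HS replicate 1 it rose in both groups, by 0.94 ± 0.18 and 0.91 ± 0.16 (adjusted p = 0.0135 and 0.00878). Icosl, the ligand of the costimulator ICOS, differed by 0.55 ± 0.17 in HS and 0.16 ± 0.17 in MC+HS (limma adjusted p = 0.396 and 1). Tnfsf9, the 4-1BB ligand gene, differed by 0.73 ± 0.28 and 0.45 ± 0.28 (limma adjusted p = 0.625 and 1), and Tnfsf4, the OX40 ligand gene, by -0.51 ± 0.21 and -0.03 ± 0.21 (adjusted p = 0.635 and 1).

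Interferon signalling genes upstream of Cd274 had 13 of 14 members named, all of which passed the filter. Only Irf9, the DNA-binding subunit of the interferon-activated complex ISGF3, was called with all arrays, at 1.90 ± 0.32 in HS (limma adjusted p = 0.0352) and 1.82 ± 0.32 in MC+HS (adjusted p = 0.0494). On the 8 arrays without HS replicate 1, 6 of the 13 rose in HS and 4 in MC+HS, and none fell. Stat2, which joins Irf9 in that complex, then rose by 1.67 ± 0.19 and 1.32 ± 0.17 (limma adjusted p = 0.000555 and 0.00129), and Irf2 by 0.79 ± 0.15 and 0.58 ± 0.14 (adjusted p = 0.0172 and 0.0462). Irf1, the factor through which interferon-gamma is known to induce PD-L1, differed by 0.85 ± 0.23 in HS and 0.84 ± 0.21 in MC+HS and was not called (limma adjusted p = 0.0886 and 0.0569). The other genes called on the 8 arrays, named after their values were seen, were Stat3 in both groups (0.77 ± 0.14 and 0.68 ± 0.13) and, in HS, the feedback inhibitor gene Socs1 (1.15 ± 0.22) and the receptor gene Ifngr1 (0.54 ± 0.12). Of the 9 CD40 and NF-kB pathway genes that passed the filter, none was called with all arrays. On the 8 arrays Relb, an NF-kB subunit, rose by 0.83 ± 0.15 and 0.63 ± 0.13 (limma adjusted p = 0.0103 and 0.0271), and Tnfaip3, a feedback inhibitor of NF-kB, by 0.84 ± 0.14 and 0.54 ± 0.13 (adjusted p = 0.00619 and 0.0430). Of 5 genes linked to the stability of PD-L1 protein, none was called with all arrays. B4galt1, which encodes a galactosyltransferase, differed by 0.27 ± 0.34 in HS and 0.53 ± 0.34 in MC+HS (limma adjusted p = 0.705 and 1), and rose in HS on the 8 arrays, by 0.70 ± 0.16 (adjusted p = 0.0366).

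**Figure D5:**
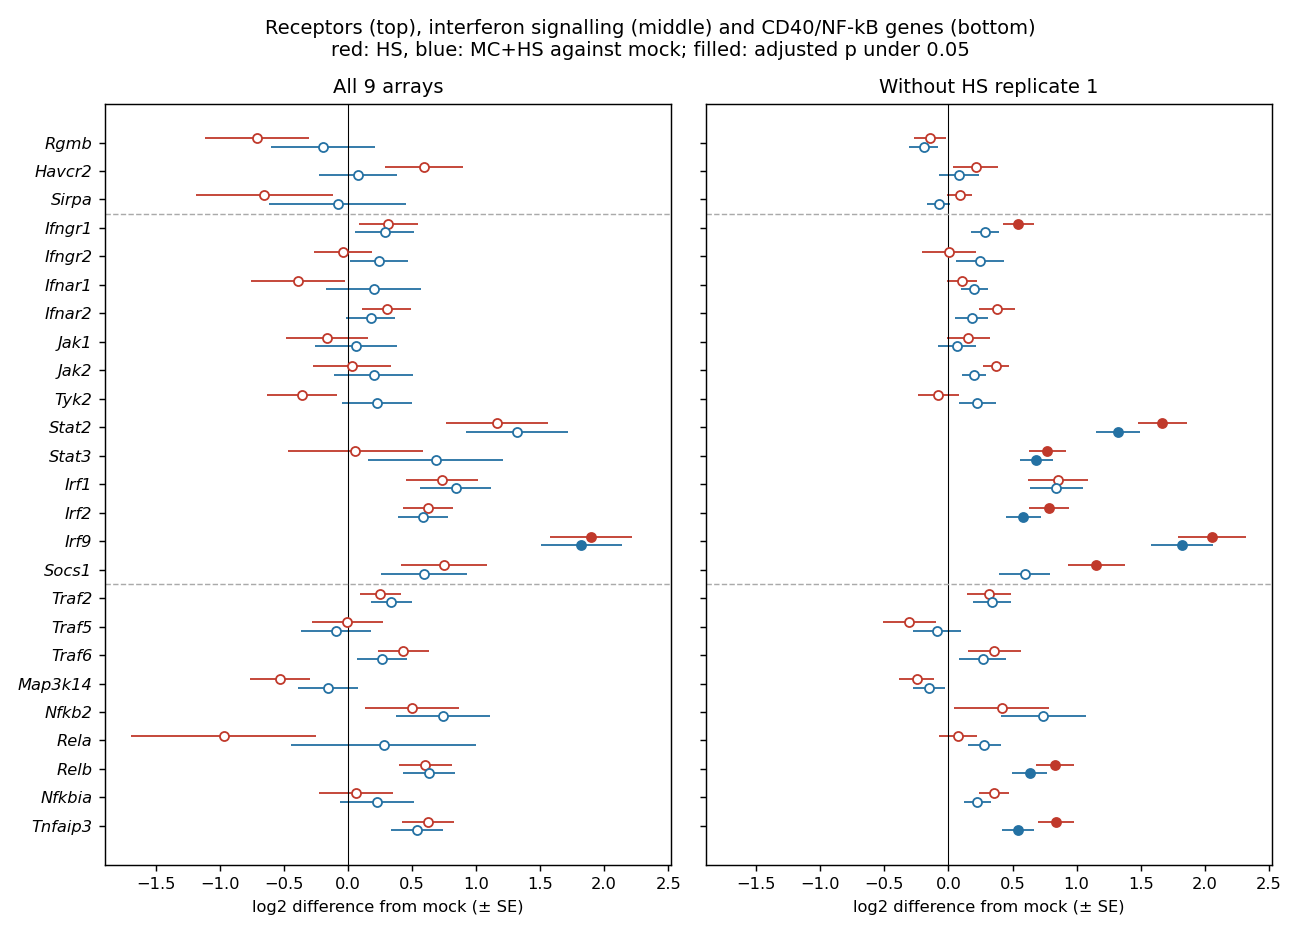
Log2 difference from mock ± SE (horizontal axis) of the receptor genes that passed the filter (top block), interferon signalling genes (middle) and CD40 and NF-kB genes (bottom), with all 9 arrays on the left and without HS replicate 1 on the right; red is HS, blue is MC+HS, and filled points had a limma adjusted p under 0.05. Irf9 is filled in both panels, and Stat2, Stat3, Irf2, Relb and Tnfaip3 are filled for both vector groups on the right.

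Among cell types that can carry these ligands, some had markers called against mock and others had none. Of 7 monocyte markers that passed the filter, 1 rose in each vector group, Chil3, by 3.14 ± 0.31 in HS and 2.97 ± 0.31 in MC+HS (limma adjusted p = 0.00324 and 0.00649). On the 8 arrays Ms4a4c and Plac8 rose too, in both groups. The summed signal of the monocyte list was 2158 to 3798 in mock, 6185 to 6765 in MC+HS, and 7924 and 8480 on HS replicates 2 and 3. On HS replicate 1 it was 2162, and the mean log2 level of the list stood 0.33 above the mock mean there, against 1.74 and 1.79 on the other HS arrays. The summed signal of 7 microglial markers was 5032 to 6207 in mock, 3916 to 4995 in MC+HS, 4579 and 4847 on HS replicates 2 and 3, and 2460 on HS replicate 1. Of these markers Gpr34 fell in HS (-1.26 ± 0.17, limma adjusted p = 0.0125), and Gpr34 and P2ry12, an ADP receptor gene, fell in MC+HS (-1.03 ± 0.17 and -0.998 ± 0.16, adjusted p = 0.0425 and 0.0351). On the 8 arrays 3 of the 7 microglial markers that passed the filter fell in each vector group, Gpr34, P2ry12 and Siglech. Of the 7, 3 lay above 0 in HS and 2 in MC+HS. Of all genes that passed the filter, 0.401% in HS and 0.446% in MC+HS were called lower. Of 7 endothelial markers that passed the filter on the 8 arrays, 2 rose in both vector groups, Cldn5 and Cdh5, and all 7 differences lay above 0. Of 8 astrocyte markers, 4 were called higher in HS and 2 in MC+HS, with Gfap and Aldh1l1 called in both. Of these 8, 6 lay above 0 in each vector group. Among all genes that passed the filter, 3.83% in HS and 3.26% in MC+HS were called higher. None of the dendritic cell, B cell or T cell markers that passed the filter was called in either vector group, with or without HS replicate 1. The summed signals of the 7 named T cell markers were 617 to 745 in mock, 538 to 651 in HS and 507 to 586 in MC+HS, and those of the 5 B cell markers were 557 to 677 in mock, 671 to 871 in HS and 707 to 799 in MC+HS. Neuronal markers, which matter for Cd200 and Cd47, summed to 57806 to 60174 in mock, 54308 to 63215 in MC+HS and 57140 and 61509 on HS replicates 2 and 3, against 37942 on HS replicate 1. The part of these cell types in the differences of the ligand genes was not tested.

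The genes most like Cd274 over the 9 arrays, by Pearson correlation of log2 signals, were Mx1, Irgm2 and Fcgr4 (0.997, 0.996 and 0.995), and those most like Lgals9 were Gbp2b, Ccl6 and Gbp7 (0.995, 0.987 and 0.987). Over the 8 arrays without HS replicate 1 they were Mx1, Gbp7 and H2-M3 for Cd274 (0.999, 0.998 and 0.998) and Tlr2, Cxcl10 and Psmb9 for Lgals9 (0.997, 0.997 and 0.996). For Cd200 they were Gnpda2, Cct4 and Kmt2b in both sets of arrays, at 0.994 to 0.995 with 9 arrays and 0.942 to 0.957 with 8. For Cd40 the 3 genes were S100a8, Fadd and S100a9 with 9 arrays (0.958, 0.942 and 0.937) and Hspa1b, Sphkap and Cenpq with 8. The arrays fall into mock and vector groups and share their scaling, so these values describe likeness of pattern and are given with no test.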

How the data were processed

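The authors deposited a linear intensity for each probe set of each array, produced with GCOS 1.4.0.036 according to the submitters' processing notes; its summary method and scaling were not given in the sources used here. Signals became log2(signal + 16), shifted per array (by at most 0.66) so that all 9 medians were equal. Without the 64 controls and the probe sets that failed to exceed their array's 40th percentile on 3 or more arrays, 28257 of 45101 remained. Dim probe sets of the members come from a fit with no filter. A single symbol was annotated for 34945 probe sets, several for 932 and none for 9160, and 34741 of the single symbols matched RefSeq genes by Entrez identifier with 0 changed. Limma 3.58.1 in R 4.3.3 (lmFit, eBayes with an intensity trend) was fitted to all 9 arrays with group as the only term. All tests were two-sided, and p-values were adjusted by Benjamini-Hochberg within each comparison over all probe sets kept, and ± marks the standard error of a log2 difference. The number of arrays, 3 per group, limits the precision: the median 95% interval reached 0.603 to either side. The script was tested on simulated data. By rule, the text names all 8 members with their receptors, up to 4 genes of each pathway list by smallest p, and the 3 genes most alike to a member. The members and lists were chosen with earlier results of these data known. Alternatives were other pseudocounts, filters, normalizations, priors and weights, fewer arrays and a replicate block.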

Additional observations from a re-analysis of the deposited data

How the results depend on the processing

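With 21 alternatives tried, Cd274 and Lgals9 stayed higher than mock in both vector groups in all of them. Cd274 was called in 18 for HS (differences 1.93 to 2.52) and 16 for MC+HS (1.90 to 2.44), and Lgals9 in 20 (1.96 to 2.50) and 13 (1.55 to 1.93). With each array left out, 1 to 3 of the 6 genes that passed the filter were called higher in HS and 0 to 3 in MC+HS. In these fits 67 to 930, 10 to 934 and 0 to 1 probe sets were called for HS and MC+HS (each against mock) and for MC+HS compared with HS, where all 9 arrays gave 219, 164 and 0. A fit of only the 6 arrays compared called 0 of the 6 genes that passed the filter and 16 probe sets for HS. For MC+HS it called 3 of the genes (Cd274, Lgals9 and Cd200) and 703 probe sets. A filter at the 60th percentile left 136 calls for HS. In MC+HS, quantile normalization and no median centring each called 1 of the genes, the latter with 69 probe sets. Array quality weights, whose estimation stopped before it converged, called 4 genes higher and 1 lower with 7776 probe sets for HS, 4 higher with 2146 for MC+HS, and 1 higher and 1 lower with 6536 for MC+HS against HS.

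The replicate numbers gave no clear pairing of the samples: 2 of 9 same-numbered pairs had deviations correlated above 0.1, and 4 of 9 arrays correlated best with their own number. These pairs were MC+HS and mock replicates 1 (0.26) and 3 (0.29), and the check had no reference level. With the replicate block 148 and 95 probe sets were called for HS and MC+HS, and 1 gene, Cd274, was called in MC+HS, where Lgals9 was not (limma adjusted p = 0.081).

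Some differences that were not called with all 9 arrays changed sign. Against mock in HS, array quality weights gave -0.32 for Cd86 and 0.42 for Cd200, both called under those weights (limma adjusted p = 0.0351 and 0.00448), and leaving out arrays gave -0.058 to 0.23 for Cd86, -1.51 to 0.092 for Cd47 and -1.20 to 0.27 for Cd200. In MC+HS against HS, Cd274 was -0.032 with a pseudocount of 64, -0.27 with quantile normalization, -0.27 with no centring, -0.060 with weights and -0.26 to 0.21 with arrays left out. Cd86 was -0.20 with no centring, -0.56 by its other probe set and -0.090 to 0.20 with arrays left out. Where no array was left out, the cause was not tested.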
